A study of Homo sapiens with 4 samples.

Results

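The SLC25 family holds the carrier proteins that move metabolites across the inner mitochondrial membrane, and its transcripts were followed in RNA immunoprecipitated with an antibody against RBM39. The members were the rows of the deposited count table whose symbol is SLC25A followed by a number alone, and which reached 10 counts in 2 or more of the 4 libraries. Of 48 rows with such a symbol 41 met this threshold, among 19210 features that met it in a table of 56303 rows. The carriers are encoded in the nucleus and made in the cytosol, and most are inserted into the inner membrane by the TIM22 import machinery, though a few sit in other membranes. Most exchange one substrate against another, so the family links the cytosol to respiration, the urea cycle, fatty acid oxidation, lipid synthesis and nucleotide supply. In hepatocytes the family is best known for the citrate carrier, which feeds lipid synthesis, and for the aspartate-glutamate and ornithine carriers, which serve the urea cycle.

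The libraries came from Huh7, an established human hepatocellular carcinoma line, labelled as carrying a short hairpin RNA against RBM39 (shRBM39), transfected as a plasmid, or a control hairpin (shControl). RBM39 is an RNA-binding splicing factor, and every IP used an antibody against it. Cells of each hairpin gave 1 immunoprecipitate (IP) and 1 input library, and all 4 groups are the same cell line with 1 library each. Total counts were 45812488 in the shRBM39 IP, 22249581 in the shRBM39 input, 41387762 in the shControl IP and 20858382 in the shControl input. RBM39 itself had 8053 counts in the shRBM39 input and 8701 in the shControl input, 0.917 times the shControl level after scaling. In the IPs it had 91929 counts in shRBM39 cells and 46798 in shControl cells, a log2 ratio of 1.10, higher in the library labelled shRBM39. The RBM39 transcript was thus little lower in the input and higher in the IP labelled shRBM39, so these counts show no clear knockdown of the transcript. An IP count reflects recovery with the antibody as well as level, and RBM39 protein was not measured in these libraries. Whether RBM39 was knocked down was not tested, and the libraries are called here by their labels throughout. No IP with a control antibody was analysed here, so IP over input may include recovery that does not depend on RBM39.

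Levels are in CPM, counts relative to library size after TMM scaling, and ratios are log2 values of counts with 0.5 added. With 1 library a group the ratios have no replicate check: the ranges in brackets are 95% intervals that cover counting error alone, and these ratios carry no p-value. A member is counted as higher or lower when its ratio was at least 2-fold and the interval excluded equality. All 12 hepatocyte markers were measured, with ALB at 29767 to 88991 counts, whereas PTPRC, CD3E, VWF, DCN and HBB did not meet the count threshold. Of 11 markers of other cells 5 did, PECAM1, COL1A1, ACTA2, EPCAM and KRT19.

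Together the 41 members made up 0.0873% of all counts in the shRBM39 IP, 0.0855% in the shRBM39 input, 0.125% in the shControl IP and 0.0916% in the shControl input. The share thus stood highest in the shControl IP and was near equal in the other libraries. The 7 rows under the threshold included SLC25A31, the testis ADP/ATP carrier, and SLC25A52, both at 0 in every library. A count of 0 allows up to 3 counts, which is 0.0655 CPM in the shRBM39 IP, 0.135 in the shRBM39 input, 0.0725 in the shControl IP and 0.144 in the shControl input. SLC25A2 had 2 counts in each library, SLC25A47 had 1 count in the shControl IP, and SLC25A34 and SLC25A41 had at most 8. SLC25A48 lay just inside the threshold, with 14, 2, 18 and 12 counts in the shRBM39 IP, shRBM39 input, shControl IP and shControl input. SLC25A21, an oxodicarboxylate carrier, lay just outside it with 8, 2, 18 and 5.

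The first question was which carrier mRNAs were more or less abundant in the IP than in the input. In shRBM39 cells 2 of the 41 members were higher in the IP and 1 was lower, where 5.29% of all features were higher and 9.00% lower. In shControl cells 5 were higher and 2 lower, where 7.70% and 11.3% of all features were. The median log2 ratio of the members was 0.16 in shRBM39 cells and 0.15 in shControl cells, against 0.02 and -0.01 over all features. By count, the carriers are thus close to the background, and their ratios ran from -1.24 to 1.61 in shRBM39 cells and from -1.15 to 2.25 in shControl cells. Over the 41 members the ratios of the 2 cultures had a Spearman correlation of 0.63, against 0.68 over all features, with 20 members above 0 in both and 13 below 0 in both.

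**Figure D1:**
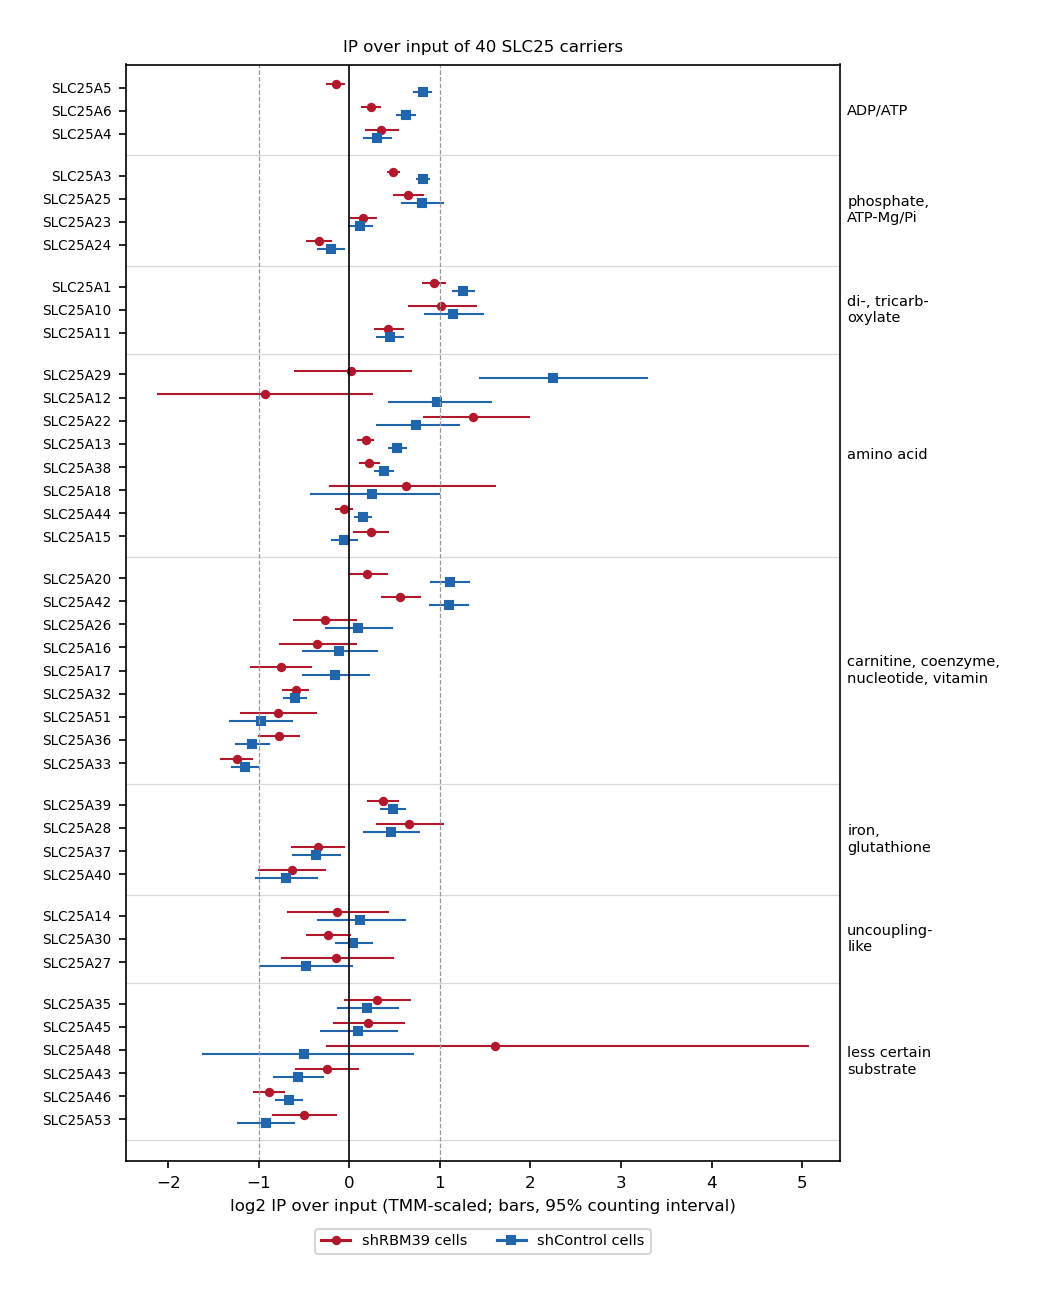
Log2 IP over input of 40 of the 41 SLC25 members, in shRBM39 cells (red circles) and shControl cells (blue squares), grouped by transported substrate; bars are 95% counting intervals and dashed lines mark 2-fold. The di- and tricarboxylate carriers lie to the right of 0 in both cultures, while SLC25A33, SLC25A36, SLC25A51 and SLC25A32 lie to the left in both.

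To test IP against input over both cultures, edgeR's quasi-likelihood test was fitted to all 19210 features with culture as a term. Here 11 members were higher in the IP and 7 lower at an adjusted p under 0.05, where 19.3% of all features were higher and 17.6% lower. The model has 1 residual degree of freedom. Without culture as a term edgeR called 0 features of 19210, with 4143 at an unadjusted p under 0.05, of which 11 were members. DESeq2 with the culture term called 5 members higher and 4 lower, where it called 2598 of all 19210 features higher and 2097 lower.

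The di- and tricarboxylate carriers had the highest median of the substrate groups in the edgeR fit, 1.09. All 3 measured members were higher in the IP in the edgeR test. SLC25A1, which exports citrate from the matrix for fatty acid and sterol synthesis (chromosome 22, 19175581 to 19178736, hg38), stood at 60.2 CPM in the shRBM39 IP and 31.5 in its input, and at 85.7 in the shControl IP and 35.8 in its input. Both IPs lay above both inputs. The log2 ratio was 0.94 (0.81 to 1.06) in shRBM39 cells and 1.26 (1.15 to 1.37) in shControl cells, and the edgeR estimate over both was 1.10 (adjusted p = 1.92e-05). SLC25A10, the dicarboxylate carrier that exchanges malate or succinate against phosphate (chromosome 17, 81712284 to 81721012), had 7.29 CPM in the shRBM39 IP and 3.58 in its input, and 10.1 in the shControl IP and 4.54 in its input. It was the only member counted as higher in both cultures, at 1.02 (0.66 to 1.40) in shRBM39 cells and 1.14 (0.83 to 1.48) in shControl cells (edgeR adjusted p = 0.000453). In shRBM39 cells SLC25A10 fell short of 2-fold with libraries scaled to total counts (0.90) and was not counted with 5 added to each count. SLC25A11, the oxoglutarate-malate carrier of the malate-aspartate shuttle, had 29.7 CPM in the shRBM39 IP and 22.0 in its input, and 33.1 in the shControl IP and 24.3 in its input. It was higher by less, at 0.43 in shRBM39 cells and 0.45 in shControl cells (edgeR adjusted p = 0.0254, but 0.105 with DESeq2).

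The phosphate and ATP-Mg/phosphate carriers were split, with 2 of 4 higher in the IP in the edgeR test and none lower. SLC25A3, which supplies phosphate for ATP synthesis, had 204 CPM in the shRBM39 IP and 146 in its input, and 223 in the shControl IP and 127 in its input, ratios of 0.49 and 0.81 (edgeR adjusted p = 0.00453). SLC25A25, a calcium-regulated ATP-Mg/phosphate carrier, had 31.8 CPM in the shRBM39 IP and 20.3 in its input, and 17.0 in the shControl IP and 9.74 in its input. Its ratios were 0.65 and 0.80 (edgeR adjusted p = 0.00135). Its relatives SLC25A23 (0.16 and 0.12) and SLC25A24 (-0.33 and -0.20) did not pass the test. SLC25A24 had 27.1 CPM in the shRBM39 IP and 34.1 in its input, and 25.7 in the shControl IP and 29.6 in its input. Of the ADP/ATP carriers, which export ATP to the cytosol, SLC25A6 passed (0.24 and 0.62, edgeR adjusted p = 0.0328, but 0.0911 with DESeq2), while the muscle form SLC25A4 (0.36 and 0.31) and SLC25A5 did not. SLC25A6 had 67.5 CPM in the shRBM39 IP and 57.3 in its input, and 74.9 in the shControl IP and 48.6 in its input. These 3 genes are close paralogs with many processed pseudogenes, so their counts may share reads.

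Among the carriers of carnitine, coenzymes, nucleotides and vitamins, 2 of 10 were higher in the IP and 4 lower in the edgeR test. SLC25A42, the coenzyme A carrier, stood at 17.1 CPM in the shRBM39 IP and 11.6 in its input, and at 22.5 in the shControl IP and 10.5 in its input (0.56 and 1.10, edgeR adjusted p = 0.000953). SLC25A20, which brings acylcarnitines in for fatty acid oxidation, had 14.5 CPM in the shRBM39 IP and 12.6 in its input, and 23.0 in the shControl IP and 10.6 in its input (0.20 and 1.11, edgeR adjusted p = 0.0117, but 0.0599 with DESeq2). For SLC25A42 both IPs lay above both inputs, and for SLC25A20 the shControl IP stood above the other 3 libraries. Both ratios passed 2-fold in shControl cells alone. The differences between cultures, shRBM39 minus shControl, were -0.53 (-0.83 to -0.24) for SLC25A42 and -0.91 (-1.20 to -0.62) for SLC25A20.

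The lower members of this group included both carriers of pyrimidine nucleotides, SLC25A33 and SLC25A36, which are paralogs. SLC25A33 (chromosome 1, 9539465 to 9585173) had 12.1 CPM in the shRBM39 IP and 28.8 in its input, and 17.5 in the shControl IP and 38.9 in its input. SLC25A36 (chromosome 3, 140941836 to 140980995) had 8.50 CPM in the shRBM39 IP and 14.6 in its input, and 10.8 in the shControl IP and 22.7 in its input. For each gene both IPs lay below both inputs. The ratio of SLC25A33 was -1.24 (-1.42 to -1.07) in shRBM39 cells and -1.15 (-1.29 to -1.01) in shControl cells, and it was the only member counted as lower in both (edgeR adjusted p = 9.21e-06, 1.76e-06 with DESeq2). For SLC25A36 it was -0.78 in shRBM39 cells and, past 2-fold, -1.07 (-1.25 to -0.89) in shControl cells (edgeR adjusted p = 0.000293). With libraries scaled to total counts SLC25A36 was no longer counted as lower in shControl cells. SLC25A51, the NAD carrier, had 2.56 CPM in the shRBM39 IP and 4.41 in its input, and 3.25 in the shControl IP and 6.40 in its input. It was lower at -0.79 and -0.98 (edgeR adjusted p = 0.00673, but 0.0584 with DESeq2). SLC25A32, a carrier of folate and flavin cofactors, had 24.6 CPM in the shRBM39 IP and 37.2 in its input, and 28.8 in the shControl IP and 43.6 in its input, both IPs again below both inputs. It was lower at -0.59 and -0.60 (edgeR adjusted p = 0.00333).

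The 250 bases before the RefSeq start are shown for both carriers of pyrimidine nucleotides and for SLC25A25, the members whose windows hold TGACGTCA. Promoter windows were matched by symbol for 35 of the 41 members, and 5 motifs were searched on both strands: TGACGTCA (the cyclic AMP response element), CACGTG (an E-box), CCAAT (a site of the factor NF-Y), TATAAA (the core of a TATA box) and GGGCGG (a GC box). Of the 46 windows of these members TGACGTCA stood in 3, against 1.65% of all 35116 windows of this length. CACGTG stood in 7 member windows, against 6.34% of all windows. CCAAT stood in 20 member windows, against 32.0% of all. TATAAA stood in 4, against 10.7%, and GGGCGG in 32, against 42.6%. The printed windows were picked with both the genes' values and their TGACGTCA match known, so the letters support none of the comparisons. Capitals mark TGACGTCA and CACGTG, which do not overlap in these windows. The coordinates are chr1:9539215-9539464, chr3:140941586-140941835 and chr9:128098257-128098506, all on the plus strand of GRCh38.p14, the last being 1 of 3 RefSeq windows of SLC25A25. In SLC25A33 TGACGTCA began 49 bases before the start and CACGTG 26 bases before it, in SLC25A36 117 and 143, and in SLC25A25 TGACGTCA began 200 bases before. A match is a description of the letters and not of a bound factor.
SLC25A33: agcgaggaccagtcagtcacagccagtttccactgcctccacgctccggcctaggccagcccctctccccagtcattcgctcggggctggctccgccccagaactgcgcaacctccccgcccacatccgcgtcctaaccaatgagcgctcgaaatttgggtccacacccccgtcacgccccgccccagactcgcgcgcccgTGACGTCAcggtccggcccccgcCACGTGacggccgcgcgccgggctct
SLC25A36: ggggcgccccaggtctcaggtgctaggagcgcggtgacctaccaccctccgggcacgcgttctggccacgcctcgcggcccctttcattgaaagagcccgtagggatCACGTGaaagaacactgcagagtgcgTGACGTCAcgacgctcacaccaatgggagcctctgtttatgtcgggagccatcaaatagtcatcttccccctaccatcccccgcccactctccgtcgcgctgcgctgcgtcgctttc
SLC25A25: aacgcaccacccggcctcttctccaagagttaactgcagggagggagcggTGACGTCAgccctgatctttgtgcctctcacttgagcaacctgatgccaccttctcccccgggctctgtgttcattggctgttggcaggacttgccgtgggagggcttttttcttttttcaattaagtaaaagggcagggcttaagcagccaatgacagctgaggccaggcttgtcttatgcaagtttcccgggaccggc

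Other members of that group did not pass the edgeR test. SLC25A17, a peroxisomal carrier of coenzymes, had 4.03 CPM in the shRBM39 IP and 6.80 in its input, and 4.18 in the shControl IP and 4.64 in its input, so its shRBM39 input stood above the rest. Its ratio was -0.75 in shRBM39 cells and -0.15 in shControl cells. SLC25A26, the carrier of S-adenosylmethionine, stood at -0.27 and 0.10, and SLC25A16 at -0.35 and -0.11.

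Iron and glutathione carriers were divided within pairs of paralogs. The glutathione carrier SLC25A39 had 25.3 CPM in the shRBM39 IP and 19.6 in its input, and 41.7 in the shControl IP and 29.9 in its input. The iron carrier SLC25A28, mitoferrin 2, had 6.28 CPM in the shRBM39 IP and 3.95 in its input, and 7.74 in the shControl IP and 5.61 in its input. The paralog of SLC25A39, SLC25A40, had 3.43 CPM in the shRBM39 IP and 5.33 in its input, and 3.80 in the shControl IP and 6.17 in its input. SLC25A39 (0.37 and 0.48, edgeR adjusted p = 0.0296) and SLC25A28 (0.66 and 0.46, edgeR adjusted p = 0.0438), were higher in the IP. SLC25A40 was lower (-0.64 and -0.70, edgeR adjusted p = 0.0262), and SLC25A37, mitoferrin 1, had ratios of -0.35 and -0.36 without passing. The difference between the paralogs was not tested. Each of these 3 calls was lost with DESeq2, at adjusted p-values of 0.115 for SLC25A39, 0.187 for SLC25A28 and 0.147 for SLC25A40. None of the 3 carriers related to uncoupling proteins passed, with SLC25A14 at -0.14 and 0.12, SLC25A27 at -0.15 and -0.48 and SLC25A30 at -0.23 and 0.05. SLC25A30 had 9.22 CPM in the shRBM39 IP and 10.8 in its input, and 14.9 in the shControl IP and 14.4 in its input, lower in both shRBM39 libraries. SLC25A27 had 64 counts in the shRBM39 IP and 37 in its input, and 86 in the shControl IP and 57 in its input.

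Of the 6 members whose substrate is less certain, 2 were lower and none higher. SLC25A46, which sits in the outer membrane and takes part in mitochondrial fission and lipid transfer, had 14.8 CPM in the shRBM39 IP and 27.5 in its input, and 19.3 in the shControl IP and 30.6 in its input (-0.89 and -0.67, edgeR adjusted p = 0.000587). SLC25A53 had 3.93 CPM in the shRBM39 IP and 5.56 in its input, and 4.11 in the shControl IP and 7.79 in its input. Its ratios were -0.50 and -0.92 (edgeR adjusted p = 0.0158, but 0.104 with DESeq2). SLC25A35, SLC25A43 and SLC25A45 had ratios between -0.56 and 0.30. SLC25A45, one of these, had 4.42 CPM in the shRBM39 IP and 3.81 in its input, and 3.58 in the shControl IP and 3.34 in its input.

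The 8 measured amino acid carriers had 1 member higher in the IP in the edgeR test and none lower. SLC25A22, a glutamate carrier, had 159 counts in the shRBM39 IP and 32 in its input, and 190 in the shControl IP and 54 in its input. It was counted as higher in shRBM39 cells at 1.37 (0.83 to 1.98) and stood at 0.74 (0.30 to 1.21) in shControl cells (edgeR adjusted p = 0.00695, but 0.0544 with DESeq2). SLC25A18, the paralog that also carries glutamate, stood at 0.63 and 0.25. SLC25A38, which supplies glycine for heme synthesis, stood at 0.22 and 0.38, and SLC25A44, a carrier of branched-chain amino acids, at -0.06 and 0.15.

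**Figure D2:**
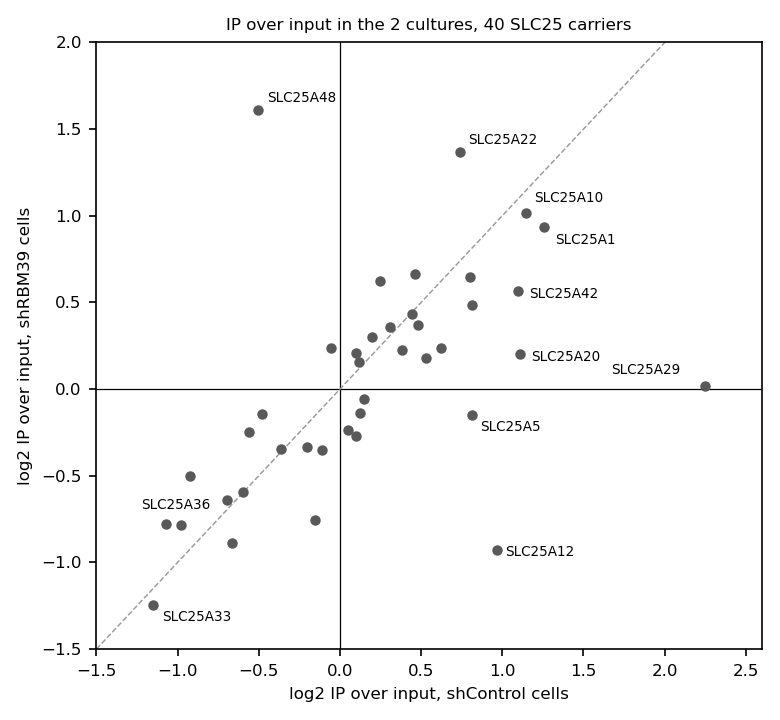
Log2 IP over input of 40 of the 41 members in shRBM39 cells (y axis) against shControl cells (x axis), 1 point a gene; the dashed line marks equal ratios. SLC25A29 and SLC25A12 lie far below the line and SLC25A48, which had 2 counts in the shRBM39 input, far above it.

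The next comparison was the difference of the log2 IP over input ratios, shRBM39 minus shControl. Of the members, 2 were lower and 0 higher, where 2.74% of all features were lower and 4.39% higher. The median difference was -0.13, against a median within 0.01 of 0 over all features, of which 9694 lay below 0, and 24 of the 41 members did. Both lower members, SLC25A29 and SLC25A12, are amino acid carriers of low level. SLC25A29, a carrier of basic amino acids (chromosome 14, 100278567 to 100306444), had 64 counts in the shRBM39 IP and 33 in its input, and 124 in the shControl IP and 12 in its input. In CPM these were 1.54 and 1.52, and 2.74 and 0.556, so the shControl input was the lowest of the 4. The ratio was 0.02 (-0.60 to 0.68) in shRBM39 cells and 2.25 (1.45 to 3.29) in shControl cells, a difference of -2.23 (-3.26 to -1.20). Its RefSeq span meets that of YY1, so reads may be shared.

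SLC25A12, an aspartate-glutamate carrier of the malate-aspartate shuttle known from heart and brain (chromosome 2, 171783405 to 171894244), had 14 counts in the shRBM39 IP and 14 in its input, and 141 in the shControl IP and 34 in its input. In CPM these were 0.338 and 0.643, and 3.12 and 1.58, so both shRBM39 libraries lay below both shControl libraries. The ratio was -0.93 (-2.11 to 0.25) in shRBM39 cells and 0.97 (0.44 to 1.57) in shControl cells, a difference of -1.90 (-3.08 to -0.72). Its paralog SLC25A13, citrin, the form known from liver, had 82.3 CPM in the shRBM39 IP and 72.6 in its input, and 84.3 in the shControl IP and 58.3 in its input. The difference for SLC25A13 was -0.35 (-0.48 to -0.22). The gap between the paralogs was not tested, and SLC25A12 rests on 14 counts in each shRBM39 library.

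Of the members with at least 200 counts in every library, SLC25A5, the ADP/ATP carrier known from dividing cells (chromosome X, 119468444 to 119471396), came nearest to 2-fold. It had 58.8 CPM in the shRBM39 IP and 65.1 in its input, and 94.7 in the shControl IP and 53.9 in its input, so the shControl IP stood above the other 3. The ratio was -0.15 (-0.24 to -0.05) in shRBM39 cells and 0.81 (0.72 to 0.91) in shControl cells, a difference of -0.96 (-1.09 to -0.83). SLC25A6 differed by -0.39 (-0.53 to -0.25) and SLC25A4 by 0.05 (-0.18 to 0.27). The overlapping antisense gene SLC25A5-AS1 moved with SLC25A5, at a difference of -1.08, and without a known strand setting their reads cannot be told apart. With libraries scaled to total counts, which lowers every difference by 0.19, SLC25A5 and SLC25A20 were also counted as lower.

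**Figure D3:**
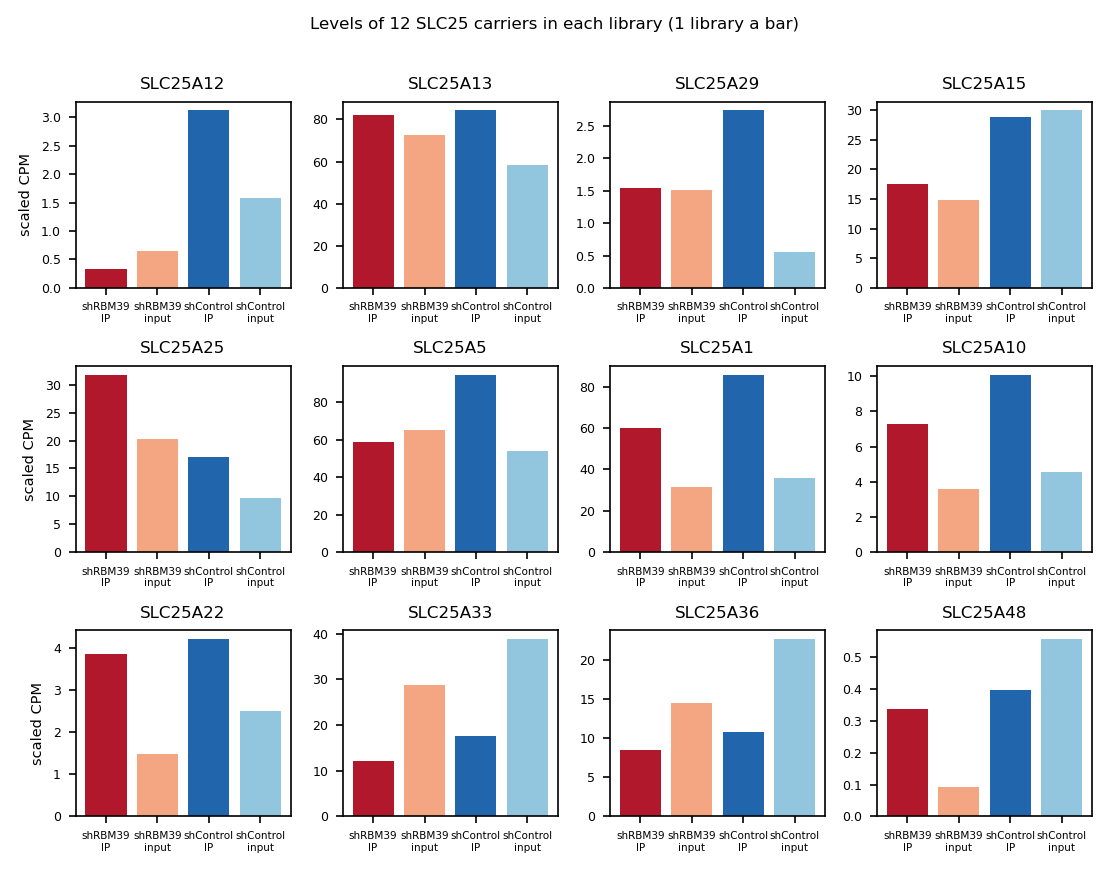
Levels in CPM of 12 members in the shRBM39 IP, shRBM39 input, shControl IP and shControl input, 1 library a bar, with a y axis of its own for each gene. SLC25A12 is lowest in the shRBM39 libraries, SLC25A25 is highest in them, and SLC25A33 and SLC25A36 are lower in each IP than in its input.

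The input libraries gave the difference in steady level between the cultures. In shRBM39 input 2 members were higher and 3 lower, where 5.10% of all features were higher and 5.74% lower. The median log2 ratio, shRBM39 over shControl, was -0.21, against -0.01 over all features. SLC25A25 (chromosome 9, 128068232 to 128109245) had 441 counts in shRBM39 input and 210 in shControl input, or 20.3 and 9.74 CPM, a ratio of 1.06 with a lower bound of 0.82. With libraries scaled to total counts, which takes 0.08 off this ratio, SLC25A25 fell short of 2-fold. SLC25A25-AS1, its antisense gene, stood at 0.81 in the same comparison. SLC25A15, which brings ornithine into mitochondria for the urea cycle (chromosome 13, 40789611 to 40812460), had 322 counts in shRBM39 input and 646 in shControl input, or 14.8 and 29.9 CPM, a ratio of -1.02 (-1.22 to -0.82). In the IPs it had 17.5 CPM in shRBM39 cells and 28.8 in shControl cells, so both shRBM39 libraries lay below both shControl libraries. Its RefSeq span meets that of the pseudogene TPTE2P5. These 2 rest on over 200 counts in each input.

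The other 3 rest on few counts. SLC25A29 was higher in shRBM39 input at 1.41 (0.46 to 2.53), SLC25A12 lower at -1.26 (-2.31 to -0.36), and SLC25A48 lower at -2.34 (-5.80 to -0.43) on 2 and 12 counts. When counts were divided by 2 in the interval, to allow for mates of a pair counted singly, SLC25A12 and SLC25A48 were no longer counted as lower. The ratios of SLC25A33 and SLC25A36 in input were -0.43 (-0.59 to -0.28) and -0.64 (-0.85 to -0.43).

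Between the IPs, shRBM39 over shControl, 1 member was lower and 0 higher, where 5.27% of all features were lower and 6.61% higher. That member was SLC25A12, at -3.16 (-4.11 to -2.41), a level 8.94 times lower in the shRBM39 IP. Of the 41 members 38 lay below 0, with 24 intervals wholly below it. Of all 19210 features 9704 lay below 0, with 6010 intervals wholly below it. The median was -0.28 for the members and -0.01 for all features, and total-count scaling lowers both by 0.27. Cell type markers moved in the same comparison. The 12 hepatocyte markers had a median of -0.94, with 9 below 0 and 5 lower at 2-fold, and summed to 5870 CPM in the shRBM39 IP and 10455 in the shControl IP, and to 13754 CPM in the shRBM39 input and 15145 in the shControl input. The 11 markers of other cells summed to 239 CPM in the shRBM39 IP and 124 in the shControl IP, and to 198 CPM in the shRBM39 input and 116 in the shControl input, with DCN and HBB at 0 in every library. Of these, the epithelial keratin KRT19 was higher in shRBM39 cells, at 1.21 between the IPs and 1.60 between the inputs. KRT19 alone held 190 of the 239 CPM in the shRBM39 IP and 82.1 of the 124 in the shControl IP. In the inputs it held 102 of the 198 CPM in shRBM39 cells and 33.8 of the 116 in shControl cells. COL1A1 went the other way and was counted as lower between the IPs, at -1.13 on 24 and 58 counts. Between the IPs 4 of the 5 measured markers of other cells lay above 0 and 1 below. The part of these markers in the members' values was not tested. The 3 members above 0 were SLC25A25 at 0.90 (0.78 to 1.03), SLC25A45 at 0.30 (-0.01 to 0.62) and SLC25A24 at 0.07 (-0.05 to 0.19). All 3 also lay above 0 between the inputs, at 1.06, 0.19 (-0.28 to 0.67) and 0.20 (0.05 to 0.36). SLC25A15 stood at -0.72 (-0.86 to -0.59), close to SLC25A39 (-0.72), SLC25A5 (-0.69) and SLC25A30 (-0.69).

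**Figure D4:**
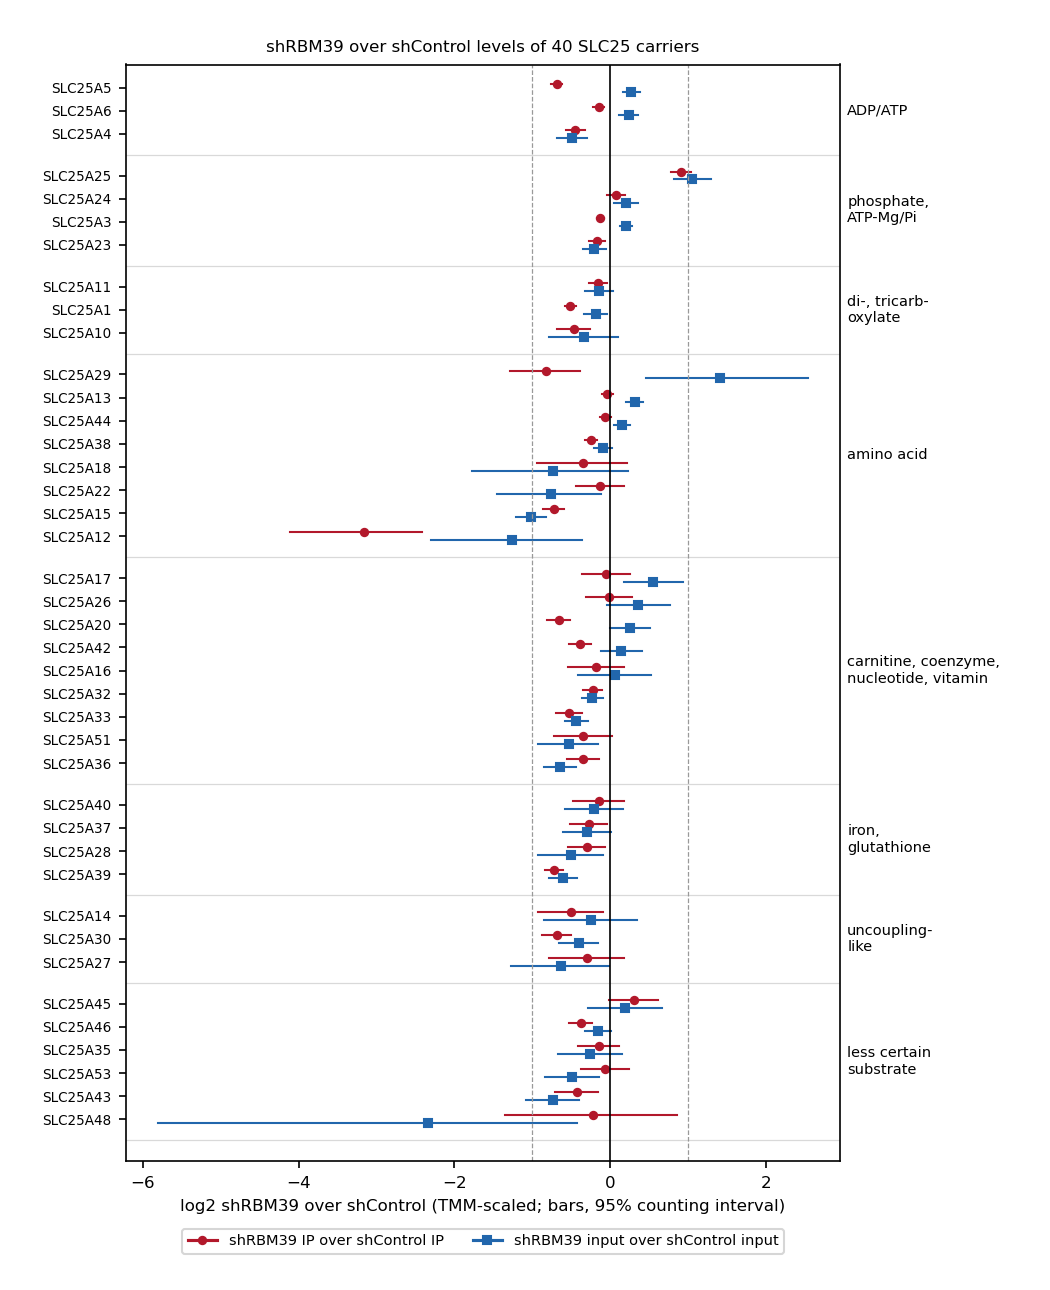
Log2 shRBM39 over shControl of 40 of the 41 members in the IPs (red circles) and in the inputs (blue squares), grouped by transported substrate; bars are 95% counting intervals and dashed lines mark 2-fold. In the IPs SLC25A25, SLC25A45 and SLC25A24 lie right of 0, as they do in the inputs, and the others lie left of it, SLC25A12 farthest.

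Genes around the family were read for comparison, from lists of related genes. Of the 5 measured family members with other symbols, 1 was higher in shRBM39 cells between the IPs, where 6.61% of all features were. It was UCP3, an uncoupling protein, at 1.59 (0.44 to 3.02), on 23 counts in the shRBM39 IP and 8 in the shControl IP. UCP3 was also higher in the difference of IP over input, at 1.91 (0.18 to 3.64), where 4.39% of all features were. Its inputs held 8 counts in shRBM39 cells and 10 in shControl cells. In the same list edgeR called 1 gene higher in the IP over input, MTCH1, an outer membrane insertase (0.44 in shRBM39 cells and 0.93 in shControl cells, edgeR adjusted p = 0.00176). Of 16 genes of the TIM22 import route edgeR called 3 higher and 3 lower, with a median of -0.03, where 19.3% of all features were higher and 17.6% lower. The import genes were thus close to the background by count. The higher ones were TIMM22, the pore of the translocase, its subunit TIMM29, which the table lists as C19orf52, and TOMM40, the pore of the outer membrane. The lower ones were the small chaperones TIMM8B and TIMM10B and the small subunit TOMM5. Of 20 other mitochondrial transporters and their regulators edgeR called 6 higher and 1 lower, against the same shares of all features, with a median of 0.11. The lower one was MICU3, a regulator of calcium uptake, at -1.08 in shRBM39 cells and -0.69 in shControl cells. The outer membrane channels VDAC1 (0.35 and 0.92) and VDAC2 (0.26 and 1.13) were called higher and VDAC3 (-0.01 and 0.85) was not. The genes that edgeR called in these lists were named after their values were seen. Between the IPs, shRBM39 over shControl, 14 of the 16 import genes, 13 of the 20 transporters and the 3 channels lay below 0. ABCB6, a porphyrin transporter, was the 1 transporter past 2-fold there, at -1.01.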

How the data were processed

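The authors deposited raw counts per gene symbol, whole numbers without normalization. The tools and build listed in the submitters' processing notes are HISAT2 2.0.4, cutadapt 1.9, StringTie 1.3.4d and hg38. What each did, how reads were counted, whether strand was used and which annotation served is not given in the sources used here. Each of the 4 count columns was tied to its sample through the title. Counts from 3 to 6 were even in 71.4% to 75.6% of cases, so mates of a pair seem to be counted singly and intervals are then too narrow.

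Features that reached 10 counts in 2 or more libraries were kept, and library totals were scaled by TMM (edgeR 4.0.16, R 4.3.3; factors 0.904, 0.979, 1.09 and 1.03 for the shRBM39 IP, shRBM39 input, shControl IP and shControl input). Ratio intervals are exact conditional (Clopper-Pearson) 95% intervals, and that of a difference comes from its counting standard error. They cover counting error only: without molecular identifiers, PCR copies of 1 molecule count separately. IP against input was also tested with edgeR's quasi-likelihood test, with Benjamini-Hochberg adjustment over all features; the 2 cultures stand in for replicates of the fraction, so its p-values measure only the spread between these libraries. DESeq2 1.42.0 was the alternative. Both steps were run on simulated counts in which the cultures did not differ, so the simulation cannot show how they perform where cultures differ.

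Genomic positions and promoters are from RefSeq on GRCh38.p14, the assembly that hg38 names; all 41 members matched by symbol. The RefSeq spans of 23 members meet another named gene. Members given by library were those counted in any comparison or called by edgeR, the one with the highest summed level in each substrate group, and the 3 highest and 3 lowest of each comparison with at least 200 summed counts. Other members are given as ratios. The members, the lists and the motifs were chosen with earlier results of these data known. Of the members and the markers, 1 each enters the counts and medians but is not reported by name or plotted here.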

Additional observations from a re-analysis of the deposited data

Results flagged for a closer look

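For 4 members IP over input lay above 0 in one culture and below 0 in the other, and the counting interval of the difference, shRBM39 minus shControl, excluded 0. The differences were -1.90 for SLC25A12, -0.96 for SLC25A5, -0.21 for SLC25A44 and 0.29 for SLC25A15. The ratio of SLC25A15 was 0.24 (0.05 to 0.43) in shRBM39 cells and -0.06 (-0.19 to 0.08) in shControl cells. That of SLC25A44 was -0.06 (-0.15 to 0.03) in shRBM39 cells and 0.15 (0.06 to 0.24) in shControl cells. Ratios of SLC25A12 and SLC25A5 are given above. For SLC25A12, SLC25A44 and SLC25A15 the interval of the ratio below 0 included 0, and for SLC25A5 neither interval did. With 1 library a group these differences between the cultures were not tested.

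Rows next to the family that are no members also held counts above the 3 that a count of 0 allows. The antisense genes had 711 counts (SLC25A5-AS1), 240 (SLC25A25-AS1) and 68 (SLC25A30-AS1) in the shRBM39 IP, against 1141, 205 and 120 in the shControl IP. The pseudogene rows SLC25A5P5 and SLC25A1P5 had 30 and 29 counts in the shRBM39 IP, against 18 and 43 in the shControl IP. All 40 pseudogene rows of the family summed to 75 counts in the shRBM39 IP, 49 in the shRBM39 input, 69 in the shControl IP and 29 in the shControl input, beside 40000, 19025, 51908 and 19102 counts of the members, and 28 of these rows had no counts.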

How the results depend on the processing

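With libraries scaled to total counts, members higher and lower in the IP numbered 1 and 2 in shRBM39 cells and 6 and 1 in shControl cells, and the difference had 4 lower; 1 member was higher in shRBM39 input and 2 were lower in the shRBM39 IP against the shControl IP. Under a minimum of 50 counts in every library compared, 1 was higher in the IP of shRBM39 cells, 1 was higher and 1 lower in shRBM39 input, and 0 were lower in the difference, which SLC25A12 and SLC25A29 then leave, or between the IPs, which SLC25A12 leaves. With counts divided by 2 in the interval 1 member was lower in shRBM39 input, and with 5 added to each count 1 was higher in the IP of shRBM39 cells. Over the 18 members whose span meets no other named gene, an alternative chosen after seeing the data, IP over input had 1 higher and 0 lower in shRBM39 cells and 1 lower in shControl cells, the difference 0 lower, the inputs 1 higher and 0 lower, the IPs 0 lower, and edgeR 3 lower. DESeq2 in place of edgeR called 5 members higher and 4 lower, where it called 2598 of all 19210 features higher and 2097 lower. It gave no adjusted p for SLC25A48. EdgeR with total counts called 7 members higher, where it called 2850 of all 19210 features higher. Without culture as a term (no replicate block) edgeR called 0 higher and 0 lower, with 5 and 6 at an unadjusted p under 0.05. No called member changed sign under these alternatives. Culture as a term pairs each IP with the input of its own culture; the labels give no replicate numbers for another pairing, and leaving out a library leaves its group empty.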
